A study of Mus musculus with 5 samples.

Results

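Trimethylation of lysine 36 on histone H3 (H3K36me3) was profiled in mTEClo, the medullary thymic epithelial cells with low CD80, and the 2 ChIP libraries of the study, series 1 and series 2, each have a separate list of broad peaks. The peaks described here are those that the lists have in common. A series 1 peak on chromosomes 1 to 19, X or Y is a member when it overlaps a series 2 peak by at least 1 bp. This took in 360 of 7231 series 1 peaks (4.98%) and 361 of 10243 series 2 peaks (3.52%), joined in 361 pairs. The stretch covered by both peaks of a pair is called a shared interval, and the 361 shared intervals add up to 126.6 kb. Because position and overlap chose the members, their number, width and score are given as a description and were not tested.

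Both groups of libraries came from wild-type B6 mice and from thymic cells sorted as EpCAM+, UEA-1+, Ly51lo and CD80lo. For each ChIP, 50000 cells of individual mice were used with an antibody to H3K36me3 (Abcam, ab9050). The input group, made without antibody, held 2 libraries for series 1 and 1 for series 2, and these served only as the background for peak calling. Libraries were read as paired ends of 75 bp. Neither age nor sex is stated in the labels, and they do not say which mouse gave which library. Each series has 1 ChIP library, so no test over replicates sets one against the other, and their spread may be technical. The files carry no read counts, so the depth behind a peak is unknown.

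H3K36me3 is laid down on nucleosomes behind elongating RNA polymerase II, chiefly by the methyltransferase SETD2, and it is known for marking the bodies of transcribed genes toward their 3′ ends while leaving promoters free. Readers of the mark include DNA methyltransferases and splicing regulators. Medullary thymic epithelial cells form the tissue in which developing T cells meet self-antigens.

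The starts of member genes are shown first because no shared interval reached an annotated start window that was available. RefSeq sequence of build GRCm38.p6, the chromosomes of which are those of mm10, was available for windows from 250 bases before to 50 after annotated starts. The windows of 4 genes that recur below are printed from their first base to the base before the start, on the strand of the gene. Polr2a encodes the largest subunit of RNA polymerase II, Srcap a chromatin remodeller that deposits the histone variant H2A.Z, Plrg1 a component of the Prp19 spliceosome complex, and Krt5 the basal keratin of medullary epithelium. Capitals mark matches to the GC box, GGGCGG or its reverse complement CCGCCC, and to TATAAA or its reverse complement TTTATA. These motifs have no letter in common, so their matches cannot overlap.
Polr2a, chr11:69758634-69758883, minus strand: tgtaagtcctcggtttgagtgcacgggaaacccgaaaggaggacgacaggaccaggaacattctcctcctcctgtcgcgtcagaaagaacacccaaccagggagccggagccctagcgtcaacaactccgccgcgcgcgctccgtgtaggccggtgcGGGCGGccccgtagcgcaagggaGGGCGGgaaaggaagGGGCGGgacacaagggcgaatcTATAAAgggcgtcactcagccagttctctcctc
Srcap, chr7:127511733-127511982, plus strand: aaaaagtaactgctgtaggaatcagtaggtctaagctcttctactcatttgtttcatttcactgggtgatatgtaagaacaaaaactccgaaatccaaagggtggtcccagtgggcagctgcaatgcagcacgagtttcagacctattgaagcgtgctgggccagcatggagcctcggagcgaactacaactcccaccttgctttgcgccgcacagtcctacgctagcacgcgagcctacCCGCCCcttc
Plrg1, chr3:83055288-83055537, plus strand: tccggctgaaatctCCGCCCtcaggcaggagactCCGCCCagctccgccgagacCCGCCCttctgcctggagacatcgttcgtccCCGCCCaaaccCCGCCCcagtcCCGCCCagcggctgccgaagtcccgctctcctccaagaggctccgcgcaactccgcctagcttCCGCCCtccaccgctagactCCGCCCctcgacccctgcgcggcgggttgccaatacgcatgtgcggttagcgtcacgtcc
Krt5, chr15:101712906-101713155, minus strand: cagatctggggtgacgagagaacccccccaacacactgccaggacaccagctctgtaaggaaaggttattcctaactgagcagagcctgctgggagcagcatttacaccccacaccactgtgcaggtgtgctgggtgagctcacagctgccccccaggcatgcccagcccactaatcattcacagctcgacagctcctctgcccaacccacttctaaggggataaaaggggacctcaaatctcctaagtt

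The 4 starts are of unlike kinds. The Plrg1 window held 8 GC boxes and 28 CpG dinucleotides, and that of Polr2a held 3 GC boxes, 1 TATAAA and 23 CpG. The Srcap window held 1 GC box and 11 CpG. The Krt5 window had neither motif and only 2 CpG. From these starts the midpoint of the nearest shared interval lay 19.04 kb downstream in Polr2a, 2.41 kb in Srcap, 3.32 kb in Plrg1 and 3.37 kb in Krt5.

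Over all member genes the promoter windows were GC-rich and CpG-rich. Windows were matched for 272 of the 324 protein-coding genes that hold a shared interval, taking the outermost start of each. A GC box lay within 250 bases of the start in 165 of them (60.7%, exact 95% binomial interval 54.6 to 66.5%), against 42.7% of all 17491 coding genes with a window and 36.6% of the 12708 without a peak in either list. TATAAA was found in 13 (4.78%, interval 2.57 to 8.03%), against 12.4% of all. The median ratio of observed to expected CpG was 0.763, against 0.537 over all genes. The same was seen in genes that have a peak in both lists but no shared interval, where 61.5% held a GC box, 5.32% held TATAAA and the median CpG ratio was 0.781. Member genes are long, and genes without a peak that were at least as long as the median member stood between, with a GC box in 50.3% and a median CpG ratio of 0.611. A match is a match of letters only, and these shares were not tested.

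Where in the genome the shared peaks lay was the first question. Of the 360 series 1 members, 340 (94.4%, exact binomial interval 91.6 to 96.6%) lay on a protein-coding gene, as did 70.0% of the 6871 series 1 peaks that were not shared. Of the 361 series 2 partners, 340 (94.2%) did so, against 61.3% of the series 2 peaks that were not shared. Shared peaks were also wider, with medians of 644 against 475 bp in series 1 and 414 against 222 bp in series 2. No peaks of like width were set beside them here, and these differences were not tested. Only 3 shared intervals fell where annotated coding genes overlap, so nearly every pair belonged to 1 gene. Together they touched 324 of 21883 coding genes (1.48%). A peak in both lists, at any place in the gene, was found in 1842 genes (8.42%), so 17.6% of the genes hit in both lists held a place where the peaks coincide. In the other 1518 genes the closest peaks of the 2 lists were a median of 11.1 kb apart (interquartile range 3.82 to 32.6 kb), and in 117 of them they were less than 1 kb apart.

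The member genes were of middle to great length. Their median length was 44.2 kb (interquartile range 24.4 to 96.3 kb), against 17.2 kb over all coding genes and 96.2 kb over genes hit in both lists without a shared interval. When all coding genes were ordered by length and split into 10 equal classes, the share with a shared interval rose from 0 of 2187 in the shortest class (median 0.942 kb) to 2.65% in the seventh (29.2 kb). The ninth and the longest class had 3.15% and 3.02%. The shared length in a gene was small, a median of 0.579% of its span.

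Along the genes, shared intervals lay toward the 3′ end. The strand was known for 287 pairings of an interval with a gene. The median midpoint lay 68.0% of the way from the annotated start to the annotated end (interquartile range 44.8 to 83.6%), 22.8 kb from the start and 12.5 kb from the end. Of the 287, 204 (71.1%, interval 65.5 to 76.3%) lay beyond the midpoint of the gene, 43 lay in its last 10% and 7 in its first 10%. With each gene divided into 10 equal stretches, the share was 2.44% in the first, 8.71% in the fourth and 16.7% in the eighth. A single interval, in Armt1, had its midpoint within 2 kb of an annotated start, and 19 lay within 2 kb of an annotated end.

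**Figure D1:**
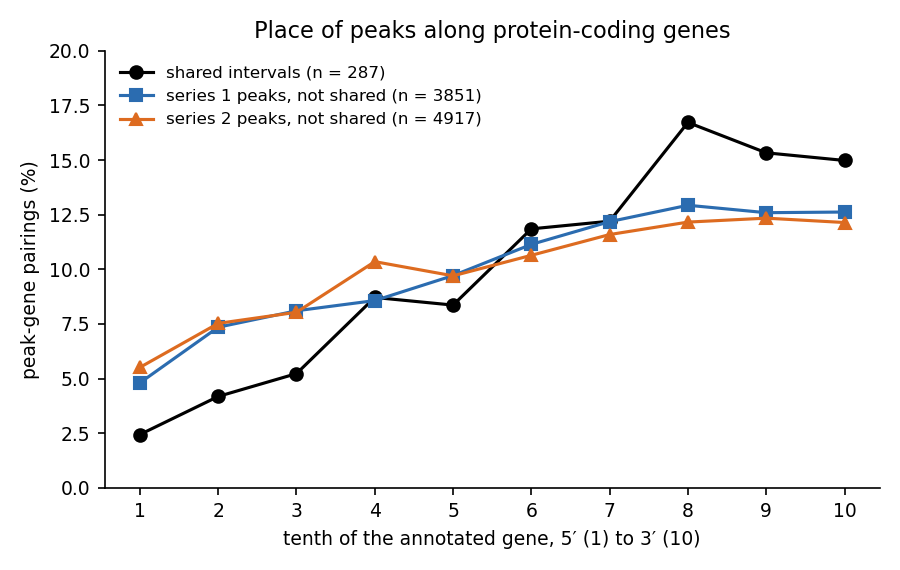
Share of peak-gene pairings (percent, vertical axis) in each of 10 equal stretches of the annotated protein-coding gene from the 5′ to the 3′ end (horizontal axis), for 287 pairings of shared intervals and for the peaks of each list that were not shared. All 3 lines rise toward the 3′ end, and that of the shared intervals starts lower, at 2.44%, and peaks at 16.7% in the eighth stretch.

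Peaks that were not shared leaned the same way but less far. Their median place was 60.4% over 3851 pairings in series 1 and 58.3% over 4917 in series 2, with 61.5% (59.9 to 63.0%) and 58.9% (57.5 to 60.3%) beyond the midpoint. Peaks of 1 library are not replicates, so the difference from the shared intervals was not tested, and the intervals cover counting error only. Width and gene length moved with it. Among peaks that were not shared but wider than the median shared peak, the medians were 60.6% in series 1 and 63.8% in series 2, and among the narrowest series 2 peaks, of at most 225 bp, the median was 55.9%. Pairings of shared intervals fell in genes with a median length of 44.1 kb, against 70.3 and 85.0 kb for the others. Within the shared set the lean did not follow gene length in 1 direction: the median place was 69.1% in the shortest 96 pairings, 63.5% in the middle 95 and 71.8% in the longest 96.

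None of the 361 shared intervals, and none of the peaks that form them, touched a promoter window of RefSeq. Windows were at hand for 272 of the 324 member genes, and the starts of the other 52 were not checked. One of those, Chchd2, has a shared interval from 129880987 to 129881161 on chromosome 5 that reaches an edge of the gene, at 129881161, with its last base. Another, Cemip2, has one from 21858017 to 21858572 on chromosome 19 that crosses an edge of the gene at 21858360. Whether these edges are starts or ends was not known here. A count of 0 among 361 allows a share of up to 0.831% by the limit of 3 counts, and 1.02% by the exact 95% binomial limit. In the whole lists 15 series 1 peaks (0.207%) and 26 series 2 peaks (0.254%) touched one, so promoters held few peaks of either list, and a lower share among the shared peaks was not detectable at this number.

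Several genes show how the peaks of the 2 libraries met. Srcap, on chromosome 7 from 127511983 to 127561219 (mm10), was the only gene with 3 shared intervals, and it held 4 series 1 and 7 series 2 peaks in all. Its intervals lay at 4.89%, 39.0% and 94.5% of the gene. The scores, series 1 before series 2, were 46 and 16 at the 5′ interval, 26 and 145 at the middle and 54 and 50 at the 3′ interval. Only the last pair scored alike in both series. A further 17 genes held 2 shared intervals each, and 306 genes held 1.

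In Polr2a both peaks of each list were shared, at 77.3% and 95.9% of the gene. The one nearer the end was 1122 bp wide with a score of 42 in series 1 and 2004 bp wide with a score of 21 in series 2. The other had a score of 14 in both. Hnrnpa2b1, the gene of an hnRNP protein that binds pre-mRNA, was of the same form, with all its peaks shared and intervals at 42.4% and 93.9%. Plrg1 departed from the 3′ lean: its intervals lay at 19.8% and 40.4%, while 3 further series 2 peaks nearer its end had no series 1 partner. Rnf31, which builds linear ubiquitin chains, had intervals at 55.6% and 71.3%.

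**Figure D2:**
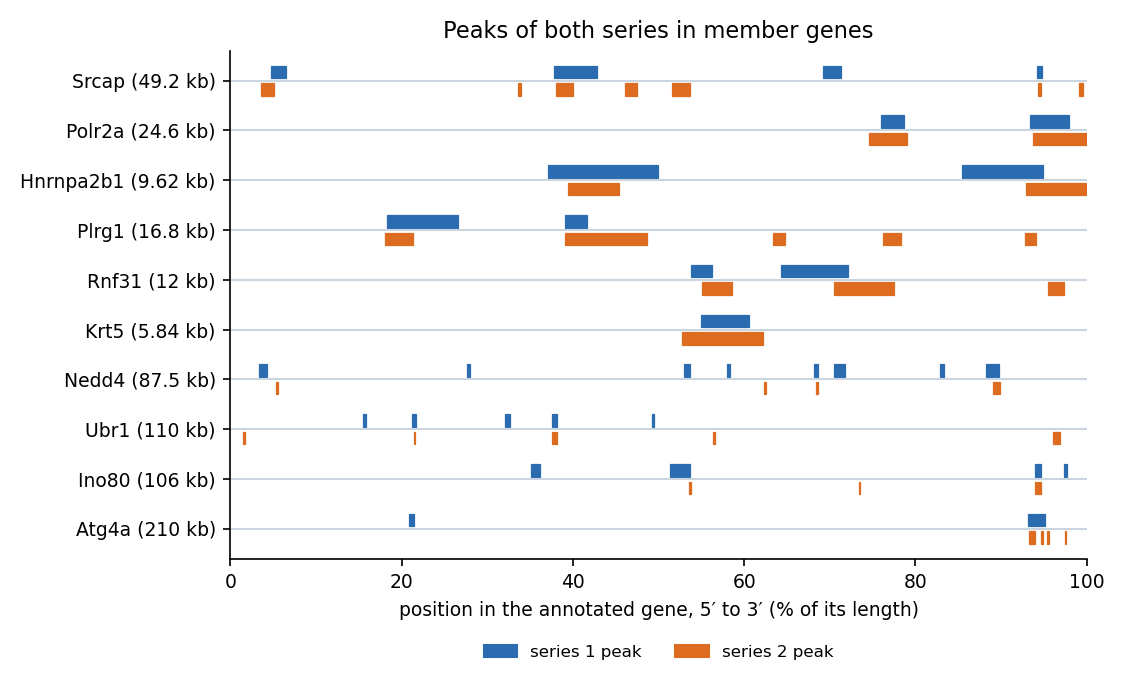
Peaks of series 1 (above each line) and series 2 (below it) in 10 member genes, drawn to scale as a percentage of the annotated gene from the 5′ to the 3′ end, with gene lengths in kb. In Polr2a, Hnrnpa2b1 and Krt5 every peak of each list met a peak of the other, while in Nedd4 and Ubr1 most did not; peaks that run past the gene's end are drawn to the end.

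In the long ubiquitin ligase genes Nedd4 and Ubr1 most peaks did not meet. Nedd4 held 8 peaks in series 1 and 4 in series 2, and 2 pairs met, at 68.5% and 89.4% of the gene. Ubr1 held 5 peaks in each, and 2 pairs met, at 37.9% and 21.5%. Ino80, the catalytic subunit of a chromatin remodelling complex, held 4 and 3 peaks with pairs at 53.6% and 94.3%. Over all 324 member genes, 92 had exactly 1 peak in each list.

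Shared peaks were wider and scored higher within their own lists than the rest. In series 1 the median shared peak was 644 bp wide (interquartile range 390 to 1044 bp), against 475 bp for those not shared. In series 2 the medians were 414 bp (226 to 807 bp) and 222 bp. The narrowest series 2 peaks, at most 9 bp wider than the narrowest of 216 bp, made up 65.6% of that list but 24.1% of the pairs. The authors' peak score, a whole number of at least 10 whose scale is not stated, had a median of 27 in shared and 21 in other series 1 peaks, and of 19 and 16 in series 2. A wide peak has more room to meet another, so width is part of what the rule chose.

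**Figure D3:**
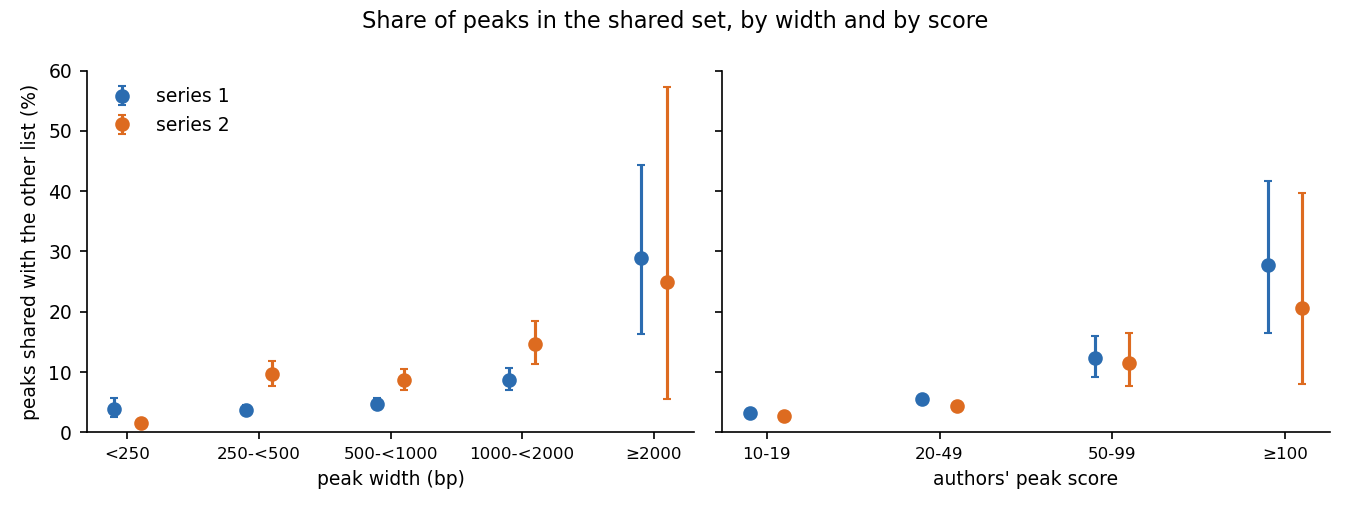
Share of peaks that overlap a peak of the other list (percent, vertical axes) by class of peak width in bp (left) and of the authors' score (right), for series 1 and series 2; bars are exact 95% binomial intervals, which cover counting error only. The share rises with score in both lists, from 3.16% and 2.78% below 20 to 27.8% and 20.7% at 100 and above. The class of 100 and above includes pairs outside coding genes on chromosomes 2 and Y in both lists, and on chromosome 9 in series 2.

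The share that was shared rose with score in both lists. In series 1 it was 3.16% of the 3198 peaks with a score under 20, 5.45% from 20 to 49, 12.3% from 50 to 99 and 27.8% (15 of 54, interval 16.5 to 41.6%) at 100 or more. In series 2 it was 2.78%, 4.29%, 11.6% and 20.7% (6 of 29, interval 7.99 to 39.7%). By width, 28.9% of the 45 series 1 peaks of at least 2000 bp were shared, against 3.87% of those under 250 bp. The shared peaks of 3396, 2468 and 2022 bp, on chromosomes 14, Y and 9, are again at such places. So even among the highest and widest peaks of a list, most had no partner in the other.

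The pairs met in different ways. In 93 pairs (25.8%) the series 2 peak lay wholly within the series 1 peak, in 38 (10.5%) the series 1 peak lay within the series 2 peak, and in 230 (63.7%) each reached beyond the other on 1 side. The median overlap was 226 bp (interquartile range 188 to 405 bp), a median of 50% of the series 1 peak and 81.0% of the series 2 peak. Starts differed by a median of 140 bp and ends by 165 bp. In 30 pairs both peaks were wider than 1 kb. The longest shared interval in a gene, 1520 bp, lay in Atg4a, an autophagy protease gene on the X chromosome. There a series 1 peak of 4230 bp, the widest of that list, took in 2 series 2 peaks, which is why there is 1 more partner than members. Clk4, a kinase of splicing factors, Dstyk, a protein kinase, and Larp4b, an RNA-binding protein, followed with 1329, 1178 and 1170 bp. The scores of these 4 genes' longest pairs were 17 to 21 in series 1 and 13 to 23 in series 2, beside medians of 27 and 19 over all pairs. The next in length scored higher in series 1, with 39 and 15 in Gpi1, a glycolytic enzyme (1154 bp), and 37 and 22 in Ppp1r8, a nuclear inhibitor of protein phosphatase 1 (1133 bp).

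The threshold of 1 bp separated pairs that differ by a few bases. The shortest overlaps were 6 bp in Eif5b and in Stat5b, 7 bp in Fryl, 17 bp in Nrbp1 and 27 bp in Ndel1. Just outside it, peaks in an overlap of Usp34 and Ahsa2 were 1 bp apart, those in Drosha and in Fmnl2 2 bp, and those in Anxa4 19 bp. A pair on chromosome 10 outside coding genes was 20 bp apart. The scores of the 5 pairs inside were 12 to 44 in series 1 and 11 to 22 in series 2, and those of the 5 outside 16 to 31 and 11 to 43. In all, 19 series 1 peaks lay less than 100 bp from a series 2 peak without touching it, and a further 131 lay less than 1 kb away. At the other end, 2346 series 1 peaks (32.4%) lay at least 100 kb from any series 2 peak.

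The scores of paired peaks went together weakly. Over the 359 pairs in which each peak had a single partner, Spearman's rank correlation was 0.298 for score and 0.150 for width, across regions of the same 2 libraries. In 173 of 361 pairs both peaks ranked at or above the median of their own list by score, and in 29 both ranked in the top 10%. In 66 pairs both scores were under 20.

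Among pairs in genes, the highest by the lower of their ranks in the 2 lists was Krt5. Its peak was 325 bp wide with a score of 104 in series 1 and 555 bp wide with a score of 76 in series 2, and the shared interval ran from 101709373 to 101709697 on chromosome 15 (mm10), 57.8% along the gene. Keratin genes resemble each other in sequence, and how reads with several matches were handled is not given in the sources used here. Rin3, an exchange factor for Rab5 GTPases, scored 95 and 66 in peaks of 237 and 228 bp at 93.9% of the gene. Rhot1, a mitochondrial GTPase, scored 70 and 51, and Zfp93, a zinc finger gene, 110 and 51. Arhgap1, a GTPase-activating protein, had the highest score of any member gene in series 1, 295, beside 50 in series 2. Mical3 scored 67 and 54, Rabgap1 72 and 46, S100a11, a calcium-binding protein of epithelia, 60 and 52, and Prpf38b, a splicing factor, 59 and 61. Widths among these genes were uneven: both peaks of Rin3, Mical3 and Rabgap1 were at most 279 bp wide, while the series 1 peaks of Rhot1, Arhgap1 and Prpf38b were 1349, 882 and 686 bp wide.

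**Figure D4:**
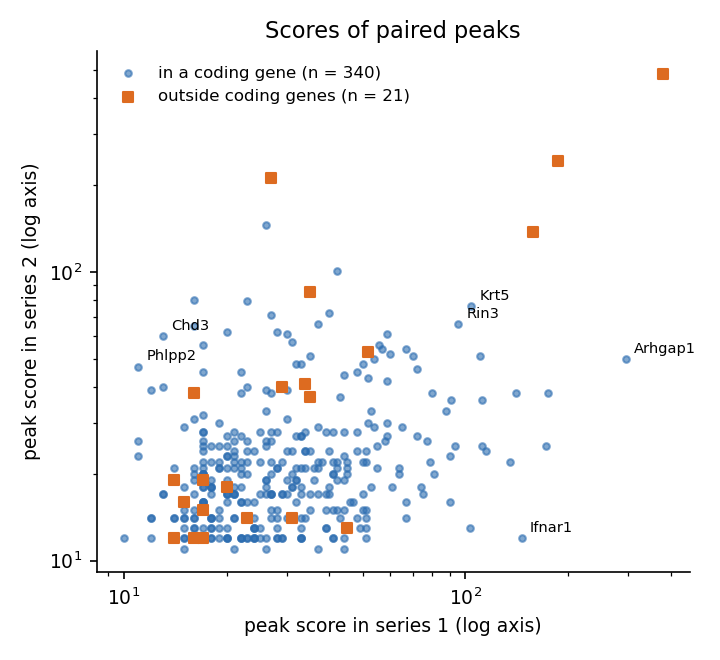
Authors' peak score in series 1 (horizontal, log axis) against series 2 (vertical, log axis) for each of the 361 pairs, with 340 pairs in a protein-coding gene as circles and 21 outside as squares. Most pairs score under 50 in both lists, and the 3 pairs above 100 in both are outside coding genes.

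Other pairs scored high in only 1 list. Ifnar1, a chain of the type I interferon receptor, had a score of 146 in series 1 and 12 in series 2, where the list's lowest score was 10. Stat5b, Tdg and Lrp5 had 44, 44 and 37 in series 1 beside 11, 12 and 11 in series 2, and a pair in an overlap of Shfl and Angptl6 had 51 and 12. In the other direction stood Phlpp2, a protein phosphatase, with 11 in series 1 and 47 in series 2, and Chd3, a remodelling ATPase, with 13 and 60. Pam, Dennd4c and Setd5 had 12, 13 and 11 in series 1 and 39, 40 and 26 in series 2. In 186 of the 361 pairs the rank was higher in series 1, so neither library ranked the shared peaks higher throughout. The lists were called against different inputs and were not normalized to each other.

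The genes were then read by 26 lists, of which some are families defined by symbol. The lists overlap, and 81 of the 324 member genes are in at least 1. Shares are given beside 1.48% of all coding genes and the median gene length, since long genes hold more shared intervals. The lists are short selections and not full catalogues: Eif3f, a translation initiation subunit with 408 bp shared, Atp6v1a and Atp6v1d of the lysosomal proton pump, and the mitochondrial genes Ndufa7 and Mrpl50 are members of the shared set that no list holds, as is Atg4a. A count therefore describes the genes written in a list and not the whole process. No list was tested.

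Genes of chromatin regulators held shared intervals in 10 of 78 cases (12.8%, median length 59.0 kb), and 42 had a peak in both lists. The longest were in Srcap (1340 bp in all), in Ep300, a histone acetyltransferase (937 bp, with scores of 32 and 19), and in Ehmt1, a methyltransferase of H3 lysine 9 (932 bp, with 41 and 15). Kmt2c and Kmt2d, which methylate H3 lysine 4 at enhancers, each held 1, near the 3′ end at 98.3% and 83.6% of the gene. Among 41 genes that write, erase or read methylation of H3 lysine 36, 2 held a shared interval, the methyltransferase gene Nsd1 and Setd5. That was 4.88% (interval 0.596 to 16.5%, median length 39.2 kb), beside 1.48% of all coding genes. A peak in both lists was found in 13 of the 41. Setd2 was among those 13, with 1 peak in series 1 and 2 in series 2 that did not meet.

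Splicing genes held them in 6 of 74 cases (8.11%, median length 22.9 kb). Luc7l2, a factor of the U1 snRNP, had the longest, 954 bp, with scores of 43 and 37, followed by Plrg1 with 936 bp and Hnrnpa2b1 with 775 bp in 2 intervals each. U2af2, Prpf8 and Rbm5 made up the rest, at 349, 83 and 30 bp. In Rbm5 the peaks met at their edges only. The list of RNA polymerase II, Mediator and elongation genes gave 1 of 63, Polr2a with 1684 bp, the greatest shared length within this list or the splicing and chromatin lists. The share of that list, 1.59% (interval 0.0402 to 8.53%, median length 26.6 kb), was near the 1.48% of all coding genes. A peak in both lists was found in 14 of the 63.

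Cytoskeletal and small GTPase genes were the list with the largest share, 12 of 81 (14.8%), and their median length of 88.1 kb was also the longest. Arhgap1 (711 bp), Iqgap1, a scaffold of the actin cytoskeleton (518 bp), and Dst, a giant linker of hemidesmosomes and filaments (514 bp), had the longest. Ubiquitin and proteasome genes gave 7 of 82 (8.54%, 61.9 kb), led by Ubr1, Nedd4 and Uba1, the ubiquitin-activating enzyme, with 877, 751 and 520 bp. Trafficking genes gave 6 of 95 (6.32%, 44.6 kb), with Vps13d, Rin3 and Rabgap1 in front at 232, 224 and 224 bp. Vps13d scored 174 in series 1 and 38 in series 2. All 3 lists are of long genes, and the longest class of all coding genes stood at 3.02%.

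Epithelial adhesion and keratin genes held shared intervals in 6 of 61 cases (9.84%, interval 3.70 to 20.2%, median length 32.4 kb). Dsg2, a desmosomal cadherin, had the longest at 439 bp with scores of 90 and 23. Itga3, an integrin chain that binds laminin, had 405 bp with 172 and 25, and Krt5 had 325 bp. Dsp and Krt7 had 217 and 214 bp, with scores of 17 and 28 and of 40 and 72. Itga6, the partner chain of Itgb4 in hemidesmosomes, had 135 bp with 36 and 19, beside 4 series 2 peaks in all. Of the 12 genes set down as medullary markers, Krt5 and Itga6 held a shared interval. Trp63, Itgb4 and Relb had peaks in 1 list only, and Krt14, Epcam, Foxn1, Cd40, Ccl21a, Cldn3 and Cldn4 had none in either, so 10 of the 12 lay without a shared interval. The short sets of defining markers of other cells held none, although Myh11 and Fbn1 of the longer fibroblast and endothelial list held 1 each. Among the defining markers, peaks were found in 1 of 6 cortical markers in series 1 and 2 in series 2, in 0 and 0 of 7 thymocyte markers, in 1 and 2 of 6 B cell and myeloid markers and in 1 and 0 of 5 fibroblast and endothelial markers. Of 4 markers of mature medullary cells, 1 had a peak in series 1 and 2 had a peak in series 2. A gene without a peak may still carry the mark below detection.

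Genes of NF-kappaB and interferon signalling held them in 6 of 53 cases (11.3%, interval 4.27 to 23.0%), with a median length of 25.5 kb. Tnip1, an inhibitor of NF-kappaB signalling, had 746 bp at 88.6% of the gene with scores of 48 and 14, Rnf31 had 333 bp and Nfkb1 200 bp. Both chains of the type I interferon receptor were among them, Ifnar1 with 181 bp and Ifnar2 with 172 bp, at 60.8% and 58.8% of their genes. Stat5b entered by 6 bp. The wider list of the medullary programme gave 3 of 31, Krt5, Lifr and Itga6.

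Translation genes gave 3 of 61, Sbds, a ribosome maturation factor, with 999 bp, Eef2k with 109 bp and Eif5b with 6 bp. In Sbds the scores were 20 and 62, and the interval took up 10.2% of the gene, the largest share of any member. Ribosomal protein genes, with a median length of 3.16 kb, gave 2 of 87, and these 2 were the only ones with a peak in both lists. Rps3a1 scored 115 and 24 at 93.3% of the gene and Rpl11 67 and 16 at 50.4%. Genes of this family have many processed copies elsewhere in the genome. Vamp2, of the vesicle fusion machinery, was the shortest member gene at 3.85 kb, and 9.83% of it was shared.

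Several lists, as written, had shares of 1.07 to 2.74%, beside 1.48% of all coding genes. Zinc finger genes gave 7 of 438 (1.60%), with Zfp945, Zfp330 and Zfp933 in front at 859, 819 and 572 bp, and solute carriers 4 of 373 (1.07%), with Slc7a7 at 985 bp. DNA repair gave 1 of 70 (1.43%, Ercc5), mitochondrial genes 1 of 60 (1.67%, Ogdh) and autophagy and lysosome 1 of 44 (2.27%, Tfeb). For mRNA decay and helicases the count was 2 of 73 (2.74%, Ddx42 and Ttc37), and for kinase signalling 2 of 79 (2.53%, Map3k5 and Insr). The kinase genes were long, 69.0 kb at the median, and 29 of them had a peak in both lists. Of those 29, 27 held no shared interval, as did 1518 of all 1842 coding genes with a peak in both lists.

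**Figure D5:**
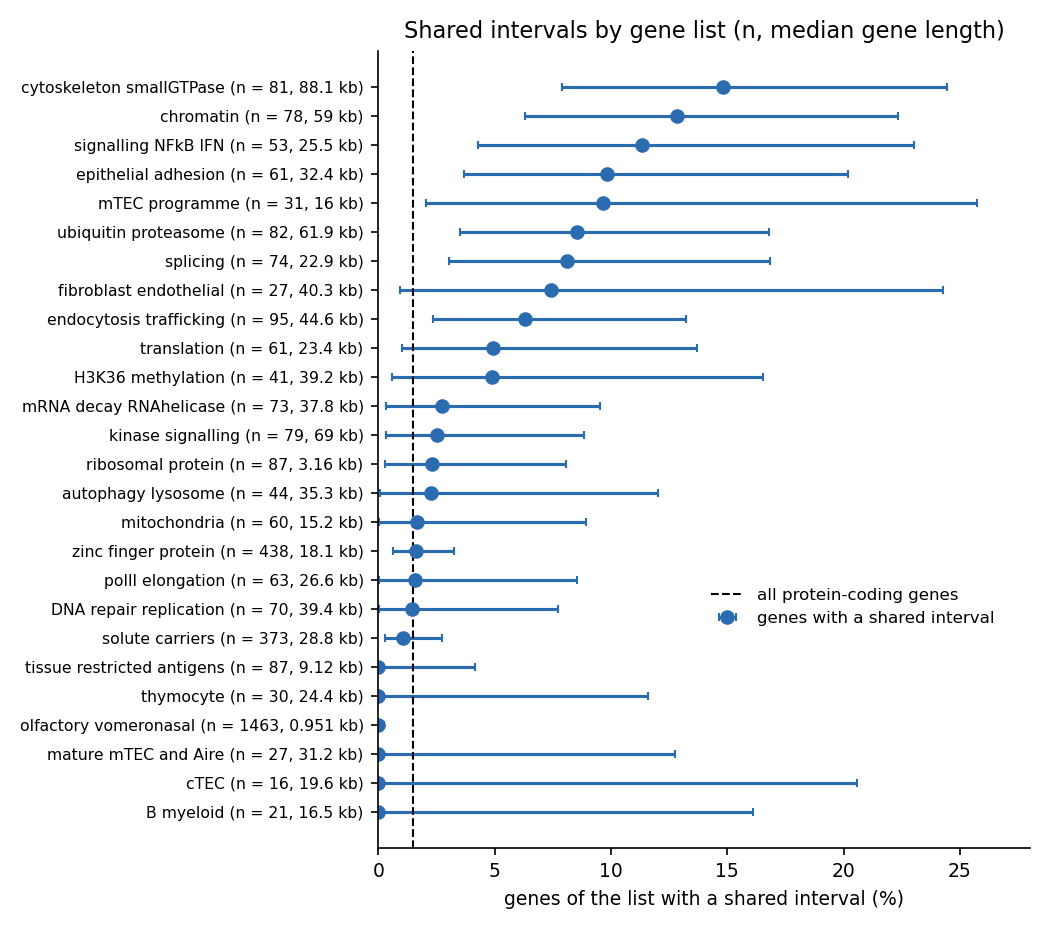
Share of the genes of each list that hold a shared interval (percent, points) with exact 95% binomial intervals (bars, counting error only), with the number of genes and their median length in kb; the dashed line is the share of all protein-coding genes, 1.48%. Cytoskeletal genes are highest at 14.8%, and 6 lists are at 0.

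No shared interval was found in 87 tissue-restricted antigen genes, 30 thymocyte genes, 1463 olfactory and vomeronasal receptor genes, 27 genes of mature mTEC and Aire partners, 16 cortical epithelial genes or 21 B cell and myeloid genes. Exact upper limits were 4.15%, 11.6%, 0.252%, 12.8%, 20.6% and 16.1%, so for all but the receptor genes a share like that of all coding genes was within the limit. The receptor genes have a median length of 0.951 kb, and the shortest class of coding genes had no shared interval either. Aire and Fezf2, which drive self-antigen expression in mature medullary cells, Psmb11, the thymoproteasome subunit of cortical cells, Ptprc of leukocytes and Actb had no peak in either list. Cd80 had 1, in series 2. Ciita, a further marker of mature medullary cells, had 1 peak in each list, and the 2 peaks did not meet. Of 27 fibroblast and endothelial genes, Myh11 and Fbn1 held a shared interval. Fbn1, a fibrillin of the extracellular matrix, scored 141 in a series 1 peak of 223 bp and 38 in a series 2 peak of 259 bp. Myh11, a smooth muscle myosin, scored 26 and 19. In that list 4 genes had a series 1 peak and 6 a series 2 peak. The part of other cells in these values was not tested.

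Outside coding genes lay 21 pairs, and they included the highest scores of all. The mm10 exclusion lists in common use, which collect places of excess signal in sequencing assays whatever the target, usually have entries around the places on chromosomes 2, 9, 14 and Y described next. No such list was applied here, so these 8 pairs cannot be read as ordinary peaks of the mark, and that origin was not tested. The pair on chromosome 2 from 98666726 to 98667297 had the highest score of both lists, 378 and 483. The pairs on chromosome Y from 90737525 to 90738730 and from 90811374 to 90813764 scored 186 and 242 and 158 and 138. The longest shared interval of all, 3396 bp on chromosome 14 from 19415834 to 19419229, scored 52 and 53. In these 4 the edges of the 2 peaks differed by a mean of 17 to 141 bp, and both peaks ranked in the top 10% of their lists.

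A further 4 of the 21 lay on chromosome 9 between 3000027 and 3036098, at 299.1 to 334.8 kb from the nearest coding gene, Alkbh8. Their series 1 scores were 34, 35, 35 and 27 and their series 2 scores 41, 37, 85 and 211. Within 50 kb of each of them lay 4 other series 1 peaks and 8 other series 2 peaks, more than around any other pair outside coding genes, which had at most 1 and 2. Over all 21 outside pairs, these 8 included, the Spearman rank correlation of the scores was 0.637, against 0.271 over 338 pairs in coding genes. The files hold no input signal at these places, so the ChIP could not be set beside its background there.

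The other 13 pairs outside coding genes scored 14 to 45 in series 1 and 12 to 40 in series 2. Of these, 4 lay less than 1 kb from a coding gene: Suco, 0.014 kb beyond its annotated end, Uso1, 0.302 kb beyond its end, and Adprh and Fpgt, at 0.56 and 0.933 kb. In 3 of the 21 the interval lay in a long non-coding RNA gene, namely Rab10os, Gm42242 and Mir100hg. In all, 14 of the 21 pairs lay more than 50 kb from a coding gene.

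The members were spread over all chromosomes, at uneven shares. Chromosome 11 had the most pairs, 33, which took in 8.35% of its series 1 peaks and 5.55% of its series 2 peaks. Chromosomes 14 and 18 had 8 each, with 2.37% and 2.61% of their series 1 peaks. The X chromosome had 3, in Uba1 and at 2 places in Atg4a, from 154 series 1 and 413 series 2 peaks (1.30% and 0.726%). Chromosome Y had 2 pairs, from 3 series 1 and 2 series 2 peaks (66.7% and 100%). Both are the pairs described above that cannot be read as ordinary peaks of the mark. The 30 pairs on chromosome 9 (7.44% of its series 1 peaks) include those between 3000027 and 3036098, to which the same applies.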

How the data were processed

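Each ChIP library had 1 list of broad peaks, called per library and not on pooled libraries. The submitters' processing notes name build mm10 with Bowtie2, SAMtools and MACS2; their versions and parameters were not given in the sources used here. The names of the peaks show that series 1 was called against 2 inputs together and series 2 against 1. The authors deposited each peak's position and a whole-number score of unstated scale. Input libraries were not analysed here beyond that role.

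Overlaps, widths and counts were computed with Python 3.11.15, numpy 2.4.6, pandas 2.3.3, scipy 1.17.1 and matplotlib 3.10.9, and the overlap search was checked on simulated intervals. Gene spans came from RefSeq on GRCm38.p6. The strand came from the RefSeq promoter windows, which gave it for 17491 of 21883 coding genes. Exons, introns and peak sequences were not used here. A place in a gene is that of the midpoint of the shared interval. Shares have exact binomial intervals at 95%, for counting error only, and no p-value was computed, since peaks of 1 library are not replicates.

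Named were the 12 pairs highest by the lower of their within-list ranks, the 8 longest intervals, genes with at least 3 intervals, up to 3 members per list, the extremes of rank difference, overlap and gap, the 6 highest pairs outside genes, and 13 set genes. Other names were added after their values were seen. The members and lists were chosen with earlier results of these data known.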

Additional observations from a re-analysis of the deposited data

How the results depend on the processing

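Of 26 recomputed values under other settings, 18 stayed within the binomial interval or within 1.5 times the reported count. With an overlap of at least 50% of both peaks, 150 series 1 peaks and 138 coding genes remained in the count, in place of 360 and 324. With a score of at least 20 in both lists these fell to 143 and 132, and with at least 50 to 15 and 11. At the setting of 20 the median place was 63.25% over 112 pairings, the lowest of all settings, and 93.7% of the peaks lay in a coding gene. With a score of at least 50, the share in a coding gene was 73.3% (11 of 15, interval 44.9 to 92.2%) in place of 94.4%, and the median place was 72.9% over 10 pairings in place of 68.0%. The pairs outside coding genes at this setting were those on chromosomes 2, 14 and Y described above. Their scores were 378 and 483, 52 and 53, 186 and 242, and 158 and 138. All lie at the places where exclusion lists usually have entries, and every other pair at this setting lay in a coding gene. The overlap setting removes pairs that meet only in part, and the score settings let fewer peaks enter; the cause of the changes in share and place was not tested. With only the wider series 2 peaks there were 273 peaks, 250 genes, 94.9% in coding genes and a median place of 68.1%. Counting peaks within 1 kb gave 510. The setting of a single coding gene per interval, median place 67.3%, was added after seeing the data. Leaving out either ChIP library leaves no shared peak, so no such value exists. No paired analysis was possible because the values come from no test and each series has 1 ChIP library. Depth is unknown, so a gene without a shared interval may lie below detection in 1 library.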
